A study of Mus musculus with 16 samples.

Results

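Flexor tendons of 2 inbred mouse strains were profiled by RNA sequencing, and the levels described here are those of 10 circadian clock genes, chosen by their symbols, out of 49568 genes in the count table. The activating arm was represented by Arntl (also called Bmal1), Clock and Npas2, and the arm driven by it through E-box elements by Per1, Per2, Per3, Nr1d1, Nr1d2, Dbp and Ciart. All 10 genes had 1 row each and passed the filter on low counts in all 5 comparisons.

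The tendons came from male C57BL/6J (C57) and MRL/MpJ (MRL) mice aged 9 to 11 weeks, MRL being a strain known for unusually good healing of some wounds. Each strain was represented by 4 libraries of uninjured tendon and 4 libraries of tendon taken 7 days after a partial cut through the deep digital flexor tendon in a hind paw. The injured C57 libraries are BI-181 and BI-183 to BI-185, and the injured MRL libraries are BI-270, BI-272 and, last, BI-274 and BI-275. Each RNA came from a single tendon with the tissue around it, operated mice received buprenorphine after surgery, and the time of day at which tissue was taken is not given in the sources used here, so it cannot be told apart from group or library in any result below.

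The circadian clock is a feedback loop of transcription that runs in nearly every cell over roughly a day. ARNTL pairs with CLOCK or its relative NPAS2 and binds E-boxes in the genes of the driven arm; the PER proteins, together with the CRY proteins, then block that pair, and NR1D1 and NR1D2 (REV-ERB alpha and beta) repress Arntl through elements called ROREs. In tissues with a running clock, Arntl RNA therefore peaks when Dbp and Nr1d1 RNA are low, and tendon is among the tissues known to hold such a clock.

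Total counts ran from 12552424 to 23741648 per library. A check of the strain labels used genes picked in the injured libraries alone, 12 seen in C57 and absent from MRL and 38 of the opposite kind. The library labelled C57 uninjured replicate 4 held at least 10 counts for 1 of the 12 C57 genes and 36 of the 38 MRL genes, and the library labelled MRL uninjured replicate 4 for 12 of 12 and 0 of 38, so both went against their strain label; the other 6 uninjured libraries matched theirs. Labels were kept as given, and most fold changes of the members that include either library are given with and without both. The 10 tendon markers together took 3.34% to 10.8% of counts in every library. Epidermis markers took 6.72% of counts in the library labelled C57 uninjured replicate 4 and skeletal muscle markers 7.34% in BI-181. Macrophage markers took 0.0681% to 0.183% of counts in the uninjured libraries and 0.338% to 0.935% in the injured ones; their part in the changes with injury described below was not tested, and in such bulk RNA a change in the mix of cells cannot be told apart from a change in RNA per cell.

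Promoter sequences of 4 members are printed because they hold the elements that join the arms: Arntl as the gene the REV-ERB proteins repress, and Per1, Nr1d1 and Ciart as genes of the driven arm that were lower in all 4 injured MRL libraries than in all 4 uninjured ones. The RefSeq table used (build GRCm38.p6) held 13 promoter windows for 9 members, each reaching 250 bases before and 50 bases into the gene; Per2 had no entry. Capitals mark an E-box (CACGTG, both strands), an E'-box (CACGTT, both strands, so that AACGTG appears on the strand printed) or a RORE consensus, and the sequences read 5′ to 3′ on the gene's strand.
Arntl, chr7:113207261-113207560, plus strand: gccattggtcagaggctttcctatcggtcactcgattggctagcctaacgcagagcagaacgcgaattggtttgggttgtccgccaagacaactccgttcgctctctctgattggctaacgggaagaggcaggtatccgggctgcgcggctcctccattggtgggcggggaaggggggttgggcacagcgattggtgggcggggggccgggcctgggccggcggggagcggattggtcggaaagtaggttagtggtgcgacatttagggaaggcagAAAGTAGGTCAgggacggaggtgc
Per1, chr11:69098699-69098998, plus strand: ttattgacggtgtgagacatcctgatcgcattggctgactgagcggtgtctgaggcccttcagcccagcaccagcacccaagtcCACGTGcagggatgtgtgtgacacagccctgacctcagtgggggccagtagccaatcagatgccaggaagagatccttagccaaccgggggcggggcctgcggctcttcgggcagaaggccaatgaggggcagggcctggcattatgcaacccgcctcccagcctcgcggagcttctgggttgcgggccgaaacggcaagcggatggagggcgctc
Nr1d1, chr11:98775328-98775627, minus strand: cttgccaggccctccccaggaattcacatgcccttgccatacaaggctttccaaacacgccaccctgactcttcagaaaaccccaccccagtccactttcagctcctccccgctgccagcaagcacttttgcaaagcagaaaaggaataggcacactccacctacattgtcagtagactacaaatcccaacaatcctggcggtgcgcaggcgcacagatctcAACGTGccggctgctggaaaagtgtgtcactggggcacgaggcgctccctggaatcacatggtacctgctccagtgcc
Ciart, chr3:95882179-95882478, minus strand: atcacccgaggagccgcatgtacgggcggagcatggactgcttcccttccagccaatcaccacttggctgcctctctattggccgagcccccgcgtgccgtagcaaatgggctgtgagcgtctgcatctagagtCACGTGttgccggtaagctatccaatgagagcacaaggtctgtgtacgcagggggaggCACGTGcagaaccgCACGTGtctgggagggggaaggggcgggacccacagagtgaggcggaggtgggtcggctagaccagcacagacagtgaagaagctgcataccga
The Arntl window from the second start site held 1 RORE, beginning 27 bases into the transcript. Ciart held 3 E-boxes, beginning 116, 58 and 44 bases before the start site, Per1 held 1 at 166 bases before the first of its 2 start sites in the table and none in the window of the other, and Nr1d1 1 E'-box at 28 bases before it. Per3 held the D-box TTANGTAA, a site for DBP and its relatives, at 205 and 158 bases before its start. Over all 32851 windows in the table, 7.15% held the E-box, 4.68% the E'-box, 2.32% the D-box and 0.384% the RORE consensus. The E-box was in 2 of 13 member windows (2 of 9 members). This small count says nothing of windows outside these 300 bases.

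Per kilobase of exon (GENCODE M21, GRCm38), Nr1d1 was far the highest member. In the 3 uninjured C57 libraries that matched their label it stood at 168 ± 28.9 CPM (counts scaled to a common library size) per kb (SD, n = 3), against 20.5 ± 10.2 for Dbp and 3.73 ± 0.534 for Per2, the lowest. In the 3 matching uninjured MRL libraries Nr1d1 stood at 206 ± 30.6, Dbp at 38.7 ± 4.87 and Npas2 last at 0.585 ± 0.305. Of neighbours in the order, Nr1d1 lay clear of Dbp in both strains. In MRL, Dbp lay clear of Nr1d2 (15.2 ± 0.603), Nr1d2 of Per3 (8.40 ± 0.642) and Clock (3.14 ± 0.656) of Npas2. Per3 and Ciart (6.93 ± 1.46) in MRL, and Ciart and Per2 (5.33 ± 0.911), differed by barely more than the larger SD. In C57 the means of the other 9 genes each lay within the larger SD of the next. With all 4 libraries Nr1d1 stood at 154 ± 36.1 in C57 and 181 ± 55.7 in MRL.

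**Figure D1:**
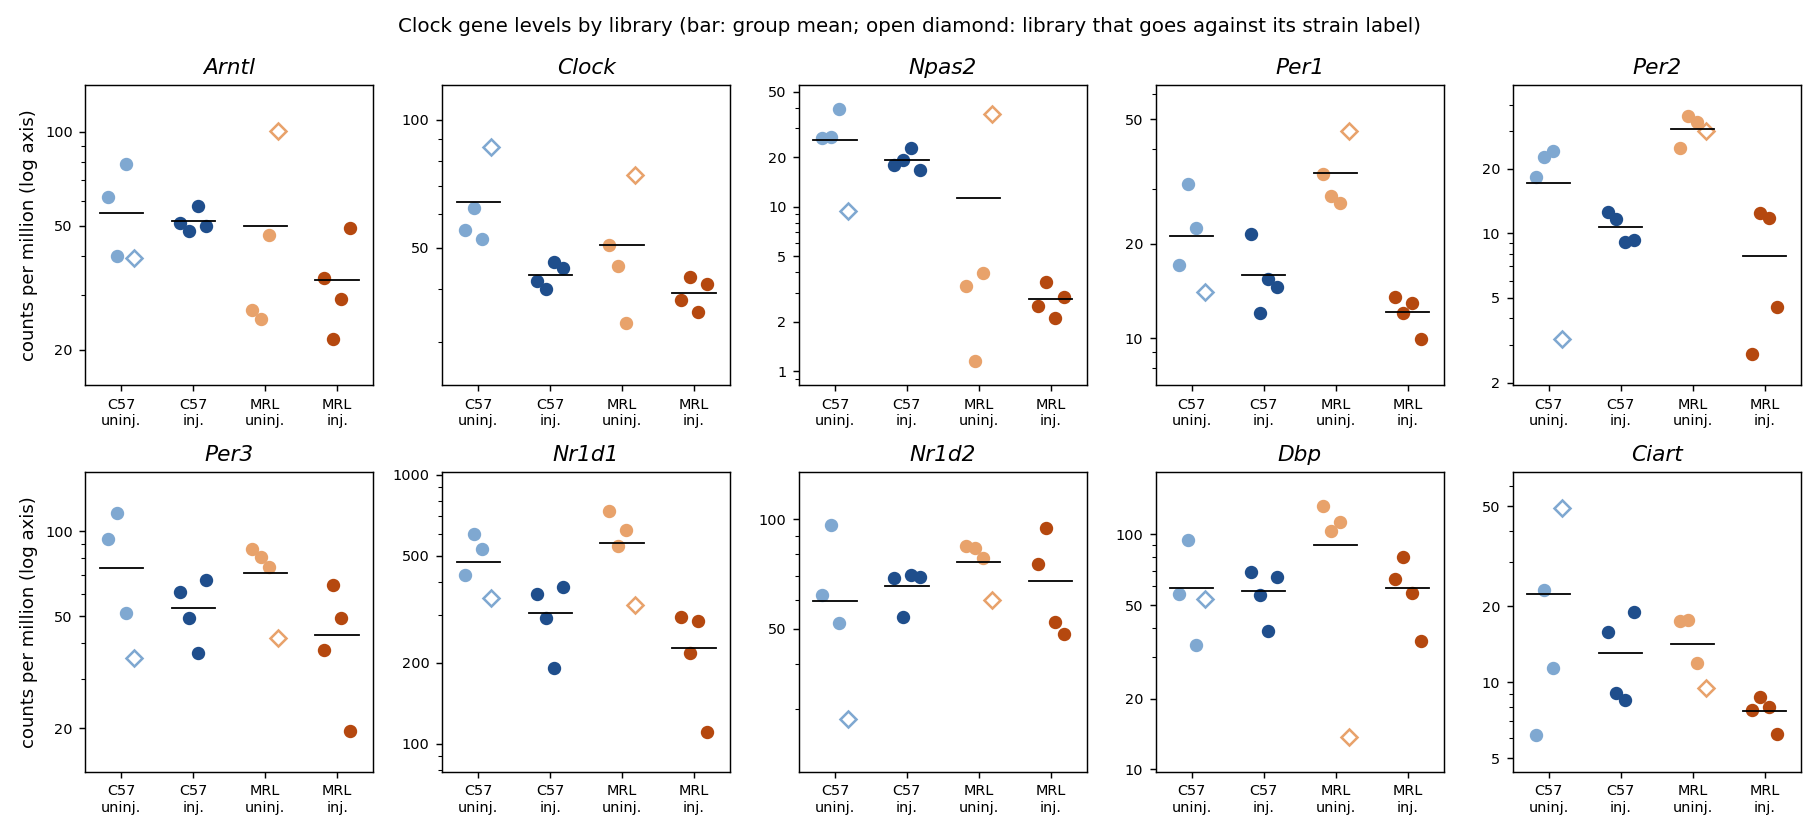
Level of each clock gene in CPM on a log axis, 1 point per library in the 4 groups, bars at group means; open diamonds are the 2 uninjured libraries that go against their strain label. Npas2 lay between 16.7 and 22.8 in injured C57 and between 2.12 and 3.49 in injured MRL, and Per1, Per2 and Nr1d1 were lower in every injured MRL library than in every uninjured one.

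Between uninjured and injured MRL tendon, 3 members of the driven arm passed the test as lower after injury, and no member passed as higher. Per1 encodes a partner of the CRY repressors and is also induced by glucocorticoids. Its level in the uninjured MRL libraries was 33.5, 28.5, 27.0 and 45.9 CPM, in replicate order, and 13.5, 12.1, 13.0 and 9.91 CPM in the injured ones, in the order in which they were named. The ranges lay far apart, and the log2 fold change was −1.47 ± 0.23 (SE, edgeR adjusted p = 0.00466); without both doubtful libraries it was −1.27 (adjusted p = 0.0127).

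Per2, which like Per1 encodes a repressor of the ARNTL pair, was at 25.2, 35.3, 33.1 and 30.1 CPM in uninjured MRL tendon and at 2.73, 12.4, 11.8 and 4.51 CPM after injury. Every injured value lay below every uninjured one, and the injured values split into a low pair, BI-270 and BI-275, and a higher pair. The log2 fold change was −1.97 ± 0.44 (edgeR adjusted p = 0.0195), and −1.97 without both (adjusted p = 0.0452). Leaving out uninjured replicate 2 or 3 raised the adjusted p past the threshold, to at most 0.0540.

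Nr1d1, the repressor of Arntl, was at 733, 545, 623 and 327 CPM in uninjured MRL tendon and at 296, 217, 287 and 110 CPM after injury. The gap between the groups was narrow only at the library labelled MRL uninjured replicate 4, and BI-275 was again the lowest. The log2 fold change was −1.29 ± 0.32 (edgeR adjusted p = 0.0299), and −1.46 without both (adjusted p = 0.0257). The call was lost with uninjured replicate 1, 2 or 3 or BI-272 left out (adjusted p up to 0.0886). Nr1d1 shares 263 of its 3077 exon bases with Thra, a thyroid hormone receptor gene on the opposite strand whose log2 fold change was −0.94 (edgeR adjusted p = 0.0674) at 10692 counts against 53427 for Nr1d1, and whether counting used strand is not given in the sources used here.

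The other members of the driven arm were also lower on average in injured MRL tendon without passing the test. Ciart, a repressor that acts on the ARNTL pair, had 17.6, 17.6, 11.9 and 9.48 CPM before and 7.77, 8.75, 7.98 and 6.24 CPM after injury, groups that did not overlap (log2 fold change −0.87 ± 0.31, edgeR adjusted p = 0.0938; −1.01 and 0.0706 without both). Dbp, a clock output factor that binds D-boxes, had 132, 103, 112 and 13.7 CPM before and 64.6, 79.9, 56.3 and 35.0 CPM after. The value of 13.7 came from the library labelled MRL uninjured replicate 4, and without both doubtful libraries the groups did not overlap and the log2 fold change went from −0.61 to −0.96 (edgeR adjusted p = 0.0532). Dbp shares 539 of its 2993 exon bases with Sphk2, a sphingosine kinase gene on the opposite strand, whose log2 fold change with all libraries was 0.09. Per3 stood at −0.73 ± 0.34 (−0.89 without both) and Nr1d2 at −0.17 ± 0.22 (−0.26).

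No gene of the activating arm passed in MRL. Without both libraries, the log2 fold changes in MRL were 0.04 ± 0.32 for Arntl, −0.12 ± 0.19 for Clock and −0.02 ± 0.62 for Npas2. With them Arntl stood at −0.57 ± 0.44 and Clock at −0.37 ± 0.23, and Npas2 stood at −2.03 ± 0.91 (edgeR adjusted p = 0.174), a value set by 36.5 CPM in the library labelled MRL uninjured replicate 4. Of the 10 members, 3 were called (adjusted p under 0.05 and over 1 on the log2 scale), all lower, where 7.41% of 14274 genes were called in either direction and 2.15% were called lower. Without both these shares were 6.11% and 1.43%, with the same 3 members called. DESeq2 called these 3 members too, where it called 6.79% of 26637 genes. Levels in all injured libraries lay below all uninjured ones for 4 members, against 9.44% of genes, and for 6 without both, against 13.0%. The median log2 fold change was −0.80 over the members and −0.03 over all genes, and −0.93 and −0.01 without both.

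In C57 tendon no member passed the test with all libraries, and Per2 passed, lower after injury, once the doubtful library was left out. Per2 was at 18.3, 22.7 and 24.4 CPM in uninjured replicates 1 to 3, at 3.19 CPM in the library labelled C57 uninjured replicate 4, and at 12.6, 11.7, 9.14 and 9.30 CPM in the injured libraries. The one doubtful library lay under every injured value and the other 3 above. The log2 fold change was −0.71 ± 0.53 with it and −1.05 ± 0.25 without it, and only the latter passed the test (edgeR adjusted p = 0.566 and 0.0409).

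Nr1d1 was at 423, 600, 529 and 349 CPM in uninjured C57 tendon and at 361, 292, 191 and 381 CPM after injury, a log2 fold change of −0.67 ± 0.27 (edgeR adjusted p = 0.296), or −0.78 (0.112) without the doubtful library. Clock, the only member whose groups did not overlap with all libraries, was at 54.9, 62.1, 52.3 and 86.4 CPM before and 41.7, 39.9, 46.2 and 44.7 CPM after. Its log2 fold change was −0.62 ± 0.21 (edgeR adjusted p = 0.210), or −0.42 (0.143) without the doubtful library. Npas2 stood at −0.45 ± 0.38, or −0.72 ± 0.22 without that library (edgeR adjusted p = 0.615 and 0.0984). Per1 stood at −0.44 ± 0.32 (−0.59 without it), Per3 at −0.50 ± 0.37 (−0.72) and Ciart at −0.83 ± 0.61, the last resting on 49.0 CPM in the doubtful library and shrinking to −0.08 without it. Arntl stood at −0.13 ± 0.24, Dbp at −0.09 ± 0.32 and Nr1d2 at 0.11 ± 0.32, and without the doubtful library at −0.25, −0.12 and −0.12.

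Of the 10 members, 0 were called in C57, where 1.07% of 14424 genes were; 2 members and 2204 genes had an unadjusted p under 0.05, and DESeq2 also called 0 members, where it called 3.38% of 26926 genes. Without the doubtful library 1 member was called, lower, where 5.01% of 14983 genes were called and 1.51% were called lower. Groups lay apart, injured below uninjured, for 1 member against 4.17% of genes, and for 4 without it (Clock, Npas2, Per2 and Nr1d1) against 10.2%. The median log2 fold change of the members was −0.47, against −0.05 over all genes, and −0.50 against −0.01 without the doubtful library.

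**Figure D2:**
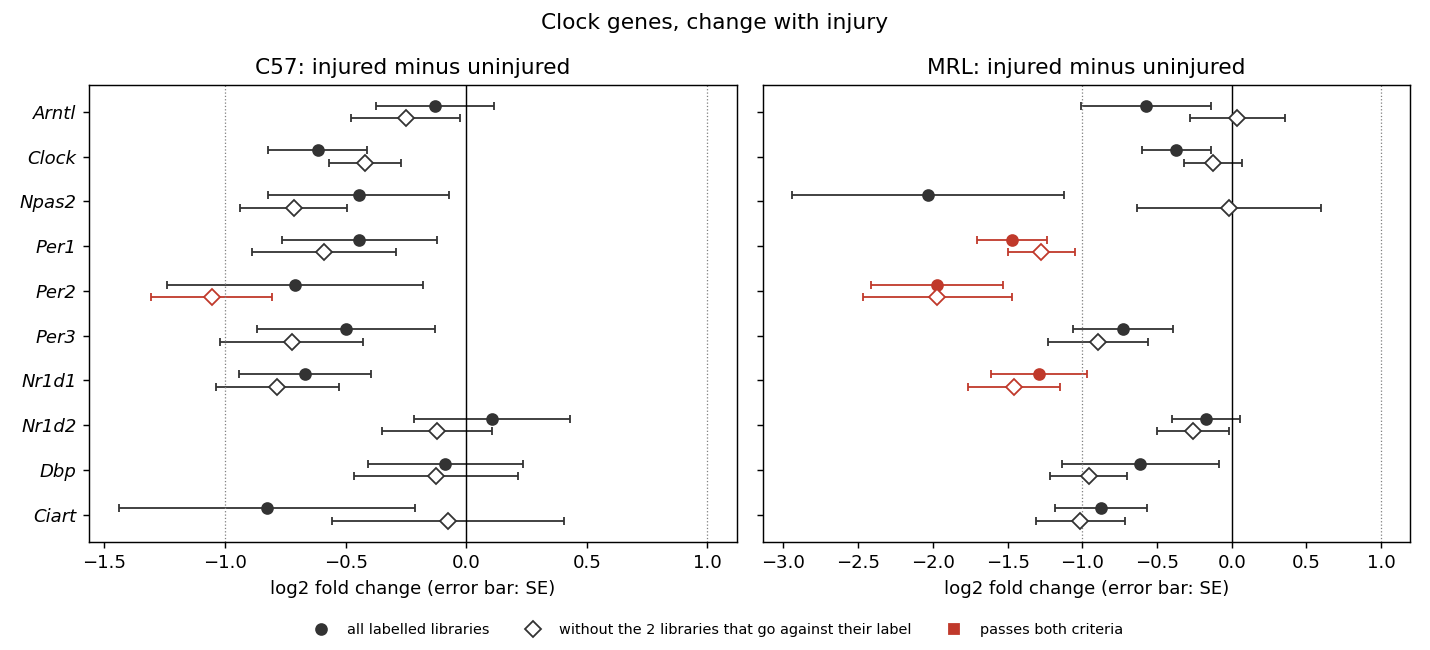
Log2 fold change with injury of each clock gene in C57 (left) and MRL (right) with its standard error; filled circles use all labelled libraries, open diamonds leave out the 2 that go against their label, red passes both criteria and dotted lines mark 1 and −1. In MRL Per1, Per2 and Nr1d1 passed either way, and in C57 Per2 passed only without the doubtful library.

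Whether injury changed a member differently in the 2 strains was asked with an interaction term over all 16 libraries, and no member passed. The difference was −1.07 ± 0.39 for Per1 (edgeR unadjusted p = 0.0137, adjusted p = 0.344), −1.30 ± 0.72 for Per2 and −0.66 ± 0.45 for Nr1d1, MRL minus C57. Without both libraries it was −0.74 ± 0.36 for Per1 (edgeR unadjusted p = 0.0615, adjusted p = 0.499), −0.97 ± 0.58 for Per2 and −0.73 ± 0.43 for Nr1d1. All 7 driven genes had a negative difference, with and without both libraries, and none passed. With all libraries Arntl (−0.49) and Npas2 (−1.63) were negative as well and Clock was at 0.19, so the sign was not particular to the driven arm. Without both, all 3 activating genes were positive. The median over all genes was −0.03 in either setting. Over all genes 0 of 15947 (0%) were called, with 1939 at an unadjusted p under 0.05, and 0 of 16391 (0%) without both; DESeq2 called 210 genes (0.706%) and none of the members.

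Npas2, the relative of Clock that can take its place beside ARNTL, was the 1 member that differed between the strains. In injured C57 tendon it was at 17.9, 19.2, 22.8 and 16.7 CPM, and in injured MRL tendon at 2.48, 3.49, 2.12 and 2.84 CPM. The raw counts were 235 to 351 in C57 and 48 to 77 in MRL, so the low group was still well above the floor of 3 counts. The log2 difference was −2.84 ± 0.29 (edgeR adjusted p = 0.000925), and it passed with each of the 8 libraries left out in turn, at −2.93 to −2.69. In a fit that shared 1 spread over all 16 libraries the difference was −2.82 and missed the test (edgeR adjusted p = 0.0657), the only alternative to do so. Total counts were 12883569 to 16579900 in injured C57 and 18524170 to 23741648 in injured MRL, so depth separated these groups as well; its part was not tested.

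In uninjured tendon the Npas2 levels were 26.3, 26.7 and 39.3 CPM in C57 replicates 1 to 3 and 3.31, 1.15 and 3.94 CPM in MRL replicates 1 to 3. Of the 2 libraries against their label, the one labelled MRL, at 36.5 CPM, lay within the range of those C57 libraries, and the one labelled C57, at 9.45 CPM, lay between the ranges of the strains. With all labels as given the log2 difference was −1.20 ± 0.95 (edgeR adjusted p = 0.762), and without both it was −3.45 ± 0.43 (edgeR adjusted p = 0.0012). Npas2 was not among the genes used to check the labels. It lies on chromosome 1 at 39193731 to 39363236 (GRCm38, plus strand), and the 2 pseudogenes that overlap it share none of its exon bases.

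No other member passed between strains. Of the activating arm, Arntl was lower in injured MRL on average, at 33.9, 21.6, 29.0 and 49.0 CPM against 50.8, 48.2, 57.8 and 49.9 CPM in injured C57. The ranges overlapped only through BI-275 (log2 difference −0.67 ± 0.24, edgeR adjusted p = 0.151). In uninjured tendon without both libraries it differed by −0.88 ± 0.30 (adjusted p = 0.135), and with them by −0.17 ± 0.45. Clock differed by −0.18 ± 0.15 in injured tendon, and in uninjured tendon by −0.37 ± 0.28 with all libraries and −0.40 without both.

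Of the driven arm, Dbp was at 69.0, 55.1, 38.8 and 66.0 CPM in injured C57 and differed from injured MRL by 0.00 ± 0.28. Without both libraries uninjured MRL stood above uninjured C57 for Dbp by 0.91 ± 0.30 (edgeR adjusted p = 0.125) and for Per2 by 0.51 ± 0.22 (adjusted p = 0.250); with all libraries these were 0.58 ± 0.58 and 0.84 ± 0.49. In that setting 4 members (these 2, higher in MRL, and Clock and Npas2, lower) did not overlap between the strains, where 24.8% of genes did not; with all libraries Per2 alone did not, where 5.04% of genes did not. Ciart was lower in injured MRL by −0.81 ± 0.35 (adjusted p = 0.216).

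In injured tendon 1 of 10 members was called, lower, where 3.43% of 14626 genes were called and 1.88% were called lower. DESeq2 also called Npas2 alone, where it called 5.44% of 27090 genes. Npas2 was also the 1 member whose levels did not overlap between the strains, where 15.8% of genes did not. In uninjured tendon 0 members were called with all libraries, where 0 of 14055 genes (0%) were, 1106 genes and 1 member (Per1, 0.65 ± 0.29, edgeR adjusted p = 0.631, and 0.32 without both) had an unadjusted p under 0.05, and DESeq2 called 104 genes (0.392%) and no member. Without both libraries 1 member was called, lower, where 3.48% of 14274 genes were called and 1.41% were called lower.

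**Figure D3:**
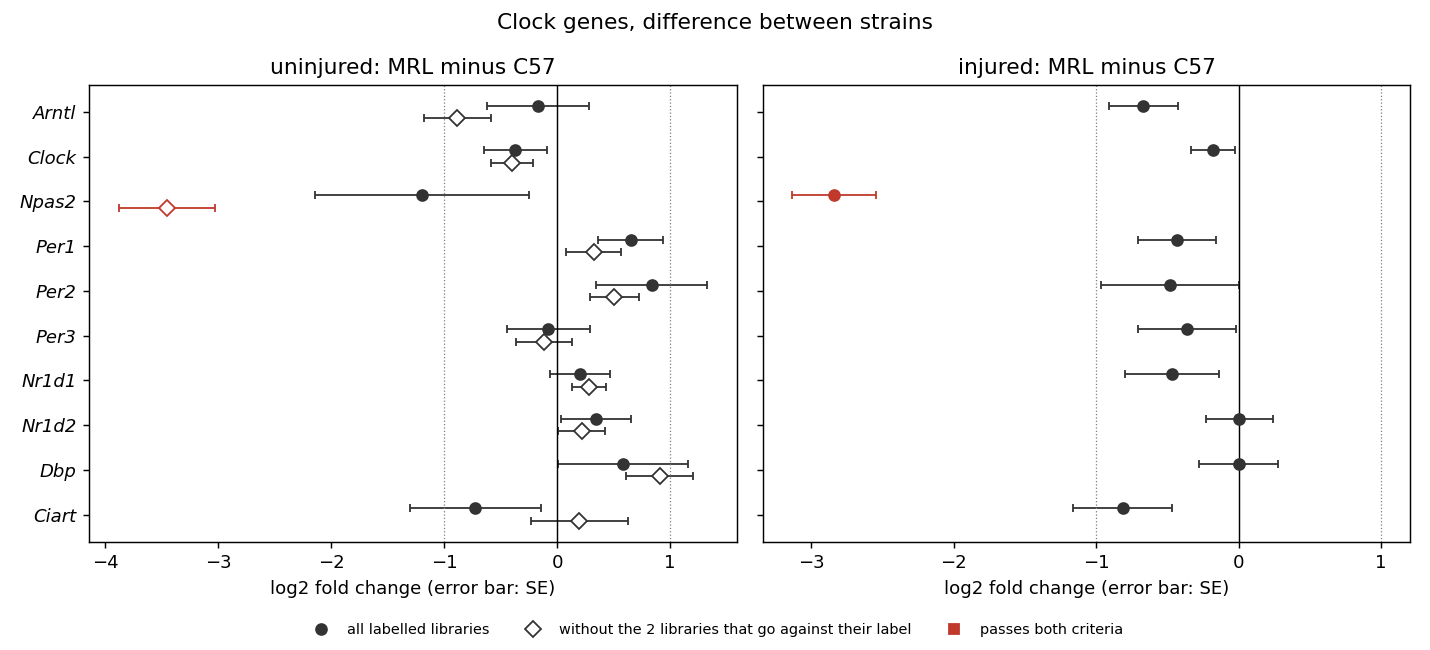
Log2 difference MRL minus C57 of each clock gene in uninjured (left) and injured (right) tendon with its standard error, drawn as in the plot of changes with injury; both libraries that go against their label are uninjured, so the right panel has 1 setting. Npas2 stood at −2.84 in injured tendon and at −3.45 in uninjured tendon without both libraries, the only red points.

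The balance of the arms was read in each library as the mean log2 CPM of the 3 activating genes minus that of the 7 driven genes, a description with no test. The group means were −0.13 ± 0.50 in uninjured C57, −0.13 ± 0.38 in injured C57, −1.45 ± 1.48 in uninjured MRL and −0.95 ± 0.60 in injured MRL (SD, n = 4). The uninjured MRL group was split between −2.12, −2.59 and −1.79 in replicates 1 to 3 and 0.72 in the library labelled MRL uninjured replicate 4, and without that library its mean was −2.17 ± 0.40 (n = 3).

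Leaving Npas2 out narrowed the gap between the strains. With Arntl and Clock alone as the activating arm, the means were 0.32 ± 0.59, 0.31 ± 0.34, −0.39 ± 1.02 and 0.26 ± 0.68 in the same order, so that injured C57 and injured MRL differed by less than their spread. Without both libraries uninjured MRL then stood at −0.90 ± 0.17 and uninjured C57 at 0.15 ± 0.60 (n = 3 each). The highest library of each group was BI-275 at 1.20, the one labelled MRL uninjured replicate 4 at 1.13, the one labelled C57 uninjured replicate 4 at 0.82 and BI-184 at 0.77.

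**Figure D4:**
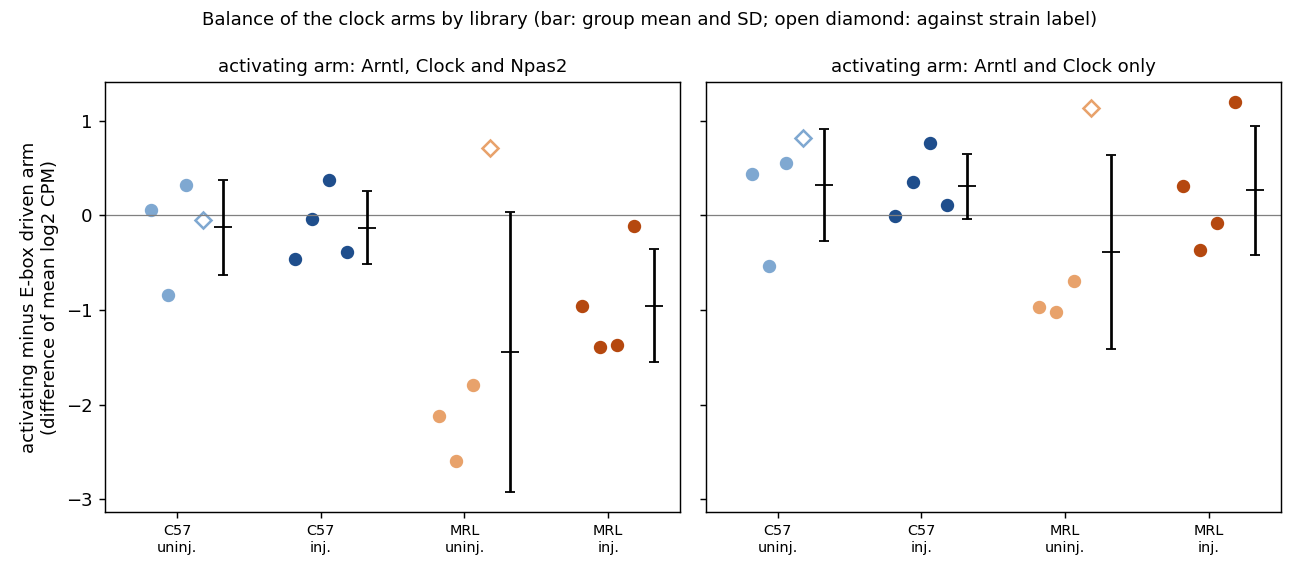
Mean log2 CPM of the activating arm minus that of the E-box driven arm, 1 point per library with group mean and SD, with Npas2 (left) and without it (right); open diamonds go against their strain label. With Npas2, uninjured MRL replicates 1 to 3 lay between −2.59 and −1.79, below all C57 libraries; the 2 injured groups overlapped with and without Npas2.

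Within groups, Arntl and Dbp were negatively correlated from library to library, with exceptions. After the mean of each group was removed, Pearson's r between them over 16 libraries was −0.86, the third lowest of 15946 genes, with 1 point, the library labelled MRL uninjured replicate 4, at the far end. Spearman's rho was −0.68, at rank 138.5 from the lowest, where Ciart was at −0.74 and rank 48.5, and with total counts r for Dbp was −0.80, at rank 10. Without both doubtful libraries r was −0.76 over 14 libraries, at rank 61 from the lowest. In uninjured C57, replicate 3 had the highest Arntl of its group (78.6 CPM) with the lowest Dbp (33.8 CPM), and replicate 2, with 40.0 CPM of Arntl, had the highest Dbp (94.3 CPM). The library labelled C57 uninjured replicate 4 did not follow this, with the lowest Arntl (39.4 CPM) and a Dbp of 53.2 CPM, below replicates 1 and 2. Nor did BI-183, with the lowest Arntl of injured C57 (48.2 CPM) and a Dbp of 55.1 CPM, below BI-181 and BI-185, or MRL uninjured replicate 2, with the lowest Arntl (25.0 CPM) and the lowest Dbp (103 CPM) of the 3 matching libraries. In injured MRL, BI-272 had 21.6 CPM of Arntl and 79.9 CPM of Dbp, and BI-275 had 49.0 and 35.0 CPM.

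Of the other members, r with Arntl was −0.59 for Ciart, −0.57 for Per3, −0.52 for Nr1d1, −0.32 for Nr1d2, 0.01 for Per2, 0.22 for Per1, 0.16 for Clock and 0.80 for Npas2. Without both, Per3 was at −0.81, Nr1d2 at −0.69 and Npas2 at 0.40. All 7 driven genes were then negative, and so was Clock of the activating arm at −0.56, beyond Per1 (−0.42), Per2 (−0.41) and Nr1d1 (−0.45). Among the 21 pairs of driven genes r was positive in 17 with all libraries and in 21 without both, with a median of 0.39 and 0.55. Among the 3 pairs of activating genes it was positive in 3 and in 1, with a median of 0.34 and −0.18, and over the 21 pairs between the arms the median went from −0.35 to −0.13. Values from one library share its depth and its scaling, so these correlations describe the libraries and carry no test.

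Genes most like Arntl over the 16 libraries were Lilra6 (r = 0.91), Gm25630 (0.90), Gm30074 (0.89), Rcan1 (0.86) and Gm26532 (0.84), and those most opposed were Etv4 (−0.89), A130014A01Rik (−0.89), Dbp (−0.86), Tep1 (−0.86) and Arhgef10 (−0.84). Without both doubtful libraries 1 of the 5 highest (Gm25630) and 0 of the 5 lowest were again among the 5. Nfil3, a repressor that competes with DBP at D-boxes, had r = 0.77 with all libraries and 0.36 without both.

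**Figure D5:**
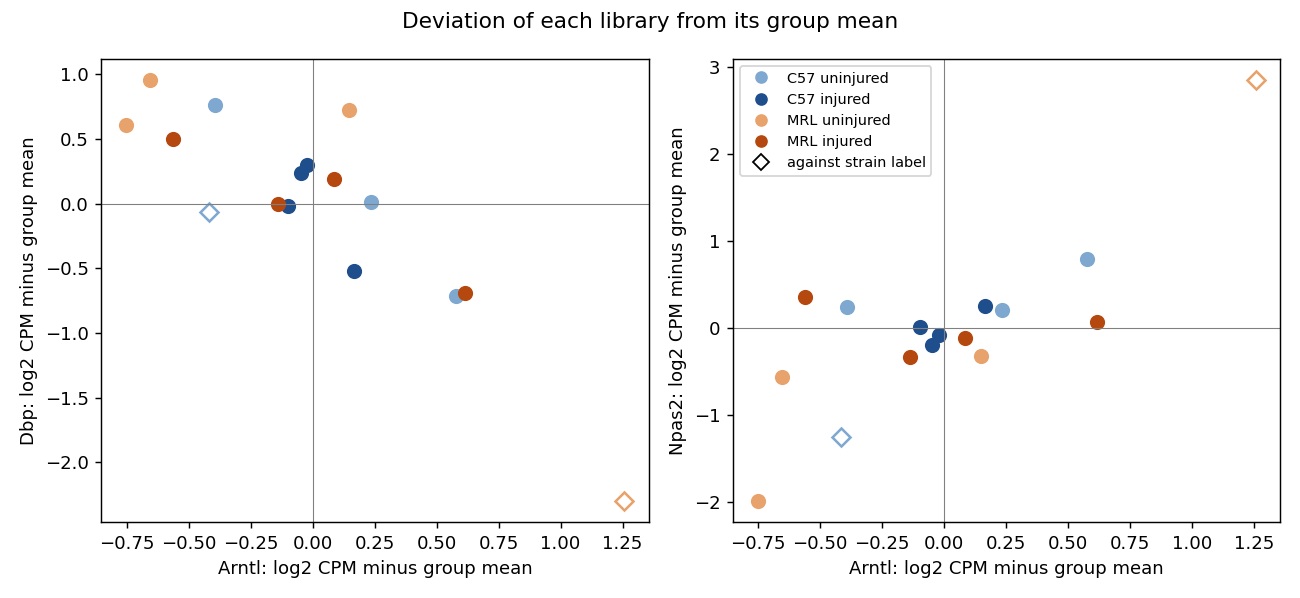
Deviation of each library from the mean of its 4 libraries, in log2 CPM, for Arntl (horizontal) against Dbp (left) and Npas2 (right); open diamonds go against their strain label. Dbp fell as Arntl rose (r = −0.86, −0.76 without the diamonds), and the relation of Npas2 with Arntl went from 0.80 to 0.40.

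Levels also varied among libraries of 1 group to different degrees. Clock was the steadiest member after injury, with an SD of 0.10 log2 CPM in C57 and 0.12 in MRL, where 2.38% and 4.89% of genes had a lower one. Per2 had an SD of 1.05 in injured MRL and 0.23 in injured C57. The mean log2 CPM of the driven arm had an SD of 0.40 in uninjured MRL, or 0.09 without the doubtful library, and 0.43 in injured MRL. In C57 it was 0.47 in uninjured tendon, or 0.43 without the doubtful library, and 0.29 in injured tendon.

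Of 18 further clock genes, all tested, 2 were called in injured against uninjured MRL, 1 in each direction, where 7.41% of all genes were called. Cry2, whose protein joins PER in blocking the ARNTL pair, was at 231 to 278 CPM before and 47.6 to 123 CPM after injury (log2 fold change −1.46 ± 0.25, edgeR adjusted p = 0.00595; −1.42 and 0.0213 without both). Timeless, which despite its name is known in mammals mainly for DNA replication, was higher after injury (4.09 ± 0.62, edgeR adjusted p = 0.00398; 4.24 and 0.0104 without both), at 0.288 to 0.862 CPM before and 3.44 to 13.2 CPM after. In those uninjured libraries the floor of 3 counts lay at 0.179 to 0.241 CPM, so the size of this rise is imprecise. Tef, a relative of Dbp, and Rora, the activator at ROREs, had an adjusted p under 0.05 but changed by less than the fold criterion (−0.79 and −0.60). Cry1 (−0.53), Nfil3 (−1.03, or −0.13 without both), Hlf (−1.70), Bhlhe40 (−0.13) and Bhlhe41 (−0.73) did not pass. The median over the list was −0.63, against −0.03 over all genes, and −0.58 against −0.01 without both.

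In C57 0 of the 18 were called with all libraries (median −0.15), where 1.07% of all genes were, and 3 without the doubtful one (median −0.22), where 5.01% were called and 1.51% were called lower. Those were Cry1 (−1.32 ± 0.31, edgeR adjusted p = 0.0398), Cry2 (−1.29 ± 0.16, 0.00415) and Rora (−1.11 ± 0.15, 0.00520), each lower after injury. In that setting Tef stood at −0.83, Nfil3 at −0.90, Hlf at −0.20, Bhlhe40 at −0.09 and Bhlhe41 at −0.36, and none of them passed. Between the strains 0 of the 18 were called in uninjured tendon, with or without both libraries, where 0% and 3.48% of all genes were, and 0 in injured tendon, where 3.43% were; Cry2, for one, differed by −0.22 ± 0.27 in injured tendon.

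Of 4 output genes of the clock, 1 was called in injured MRL, where 7.41% of all genes were called and 2.15% were called lower. It was Usp2, a ubiquitin protease, lower after injury (−1.05 ± 0.24, edgeR adjusted p = 0.0199; −0.92 and 0.0585 without both). Wee1, a cell cycle kinase, was called lower in injured C57 only without the doubtful library (−1.42 ± 0.32, edgeR adjusted p = 0.0332), where 5.01% of all genes were called and 1.51% were called lower. Nampt and Klf10 did not pass in either strain. Of 8 genes known to respond to glucocorticoids, as Per1 does, Tsc22d3 (−1.43), Klf9 (−1.66) and Dusp1 (−2.26) were called lower in injured MRL, where 7.41% of all genes were called and 2.15% were called lower; the median of the 8 was −0.54. Without both libraries Klf9 alone of these was called lower (−1.53) and Sgk1 was called higher (1.22), where 6.11% of all genes were called and 1.43% were called lower, and the median was −0.14. Fkbp5, a widely used marker of that response, stood at 0.84 ± 0.30 (edgeR adjusted p = 0.0983), Zbtb16 at −1.28, Errfi1 at 0.33 and Mt2 at 0.59, and none of these 4 passed. In C57 0 of the 8 were called with all libraries, where 1.07% of all genes were, and Klf9 alone without the doubtful one (−1.14), where 5.01% were called and 1.51% were called lower.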

How the data were processed

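Gene counts for 16 libraries were used as deposited. Per the processing notes of the submitters, the authors trimmed reads with Trimmomatic 0.36, aligned them to GRCm38.p5 with STAR 2.5.2b, counted reads per gene with featureCounts (Subread 1.5.0p3) and tested with DESeq2 1.14.1; the annotation and strand setting are not given in the sources used here. The labels and the methods name different library kits, and preamplified low-input libraries can make low counts more variable.

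Here, genes were filtered with filterByExpr, scaled by TMM and tested with edgeR 4.0.16 quasi-likelihood fits (robust, R 4.3.3), each comparison on its own libraries and the interaction on all 16, with Benjamini-Hochberg adjustment over all genes tested. A gene was called at an adjusted p under 0.05 and a log2 fold change over 1 in size, or, for the interaction, at the adjusted p alone. Levels are CPM on TMM-scaled totals, and log2 values used a prior count of 2. DESeq2 1.42.0 was an alternative. The fits were tested on simulated data with known changes.

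Members and gene lists were chosen with earlier results of these data known. Values were named for all members, for every called gene of the other lists, for a set of their genes listed in the naming rule, and for the 5 genes at each end of the correlation with Arntl. Strain genes for the label check had at least 30 counts in every injured library of their strain and at most 3 in the other. The labels do not name the animals; the methods give 4 animals per group for these RNA samples.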

Additional observations from a re-analysis of the deposited data

Results flagged for a closer look

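Among the 40 sets of 4 libraries formed by 10 members and 4 groups, 2 held a value far from the rest, judged by the gap to its neighbour as a share of the whole range (Dixon's test at its 95% critical value). By chance about 1 in 20 sets would pass. Npas2 in uninjured MRL had a gap of 0.921 of the range, from 36.5 CPM in the library labelled MRL uninjured replicate 4, which went against its strain label; the other 3 were at 1.15 to 3.94 CPM. Nr1d2 in injured C57 had a gap of 0.923, from 53.9 CPM in BI-183 against 69.0 to 70.3 CPM in the other 3.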

How the results depend on the processing

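Leaving out both libraries that go against their strain label was chosen after seeing the data. The other alternatives were planned, but the one without the libraries that stand apart drops these same 2 and BI-181. That setting too rests on libraries picked out from these data. In MRL injury and uninjured strain it is the same fit as without both, so it adds no separate support there. Leaving them out moved the members called from 0 to 1 in C57 injury (Per2) and from 0 to 1 in uninjured strain (Npas2), as did leaving out the libraries that stand apart (also BI-181), 1 and 1, where 5.97% and 3.48% of all genes were called. The fit of all 16 libraries called 0 in injured strain, in place of 1. With each library left out in turn, 0 to 1 members were called in C57 injury, where 0.0667% (without C57 uninjured replicate 3) to 5.01% (without C57 uninjured replicate 4) of all genes were, and 1 to 3 in MRL injury, where 4.64% to 8.58% were. In each case 0, 1 and 0 were called in uninjured strain, injured strain and the interaction, where 0% to 0.0204%, 1.52% to 3.19% and 0% of all genes were. Nr1d1 missed the test in MRL without a filter on low counts (edgeR adjusted p = 0.0563). Of 910 recomputed log2 fold changes, 855 kept their direction and side of the test and 42 changed sign, none of them past the test in either fit. These 910 are not all from separate fits. The setting on adjusted p alone reuses the main fit, and some settings leave out the same libraries, so the 855 overstates stability. Scaling by total counts moved the median of all genes from −0.05 to 0.08 in C57 injury, from −0.06 to −0.20 in injured strain and from −0.03 to −0.14 in the interaction. The members that changed sign under it stood at 0.00078 for Arntl and 0.023 for Dbp in C57 injury and at −0.13 for Nr1d2 and −0.13 for Dbp in injured strain, the last 2 at −0.012 and −0.018 with at least 10 counts in every library. Without both libraries the values were −0.12 for Nr1d2 in C57 injury, 0.039 for Arntl in MRL injury, 0.20 for Ciart in uninjured strain, and 0.23 for Arntl and 0.63 for Npas2 in the interaction; without the libraries that stand apart they were −0.12, 0.039, 0.20, 0.23 and 0.61. Libraries left out in turn gave ranges across 0 in C57 injury for Arntl (−0.26 to 0.090), Nr1d2 (−0.12 to 0.43) and Dbp (−0.28 to 0.22), in MRL injury for Arntl (−0.82 to 0.039), in uninjured strain for Arntl (−0.76 to 0.072), Per3 (−0.30 to 0.22) and Ciart (−1.02 to 0.050), in injured strain for Nr1d2 (−0.16 to 0.19) and Dbp (−0.15 to 0.24), and in the interaction for Arntl (−0.74 to 0.11), Npas2 (−2.01 to 0.36) and Ciart (−0.84 to 0.23). The arms differed by 0.31 in injured C57 and 0.26 in injured MRL with Npas2 left out. Without both libraries r with Arntl moved to −0.56 for Clock, 0.40 for Npas2 and −0.42 for Per1. The cause was not tested for any of these. The replicate number of the uninjured libraries did not pair them (correlations of same-numbered deviations −0.26, 0.02, −0.10 and −0.23), and a replicate block called 0 members and put Per3 at 0.0064 in uninjured strain. The 1.15 CPM of Npas2 in 1 uninjured MRL library rest on 16 reads, which limits the precision of that value.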
